A study of Mus musculus with 2 samples.

Results

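Meis1, Meis2, Pbx3, Zic1, Zic2, Zic4 and Zic5 are transcription factor genes that help give parts of the embryonic brain their regional identity. They were followed here in nuclei of an embryonic and an adult mouse brain. The 7 genes were taken by symbol from the gene lists of the matrices, where they are 7 of 32285 genes. The data were Slide-tags single-nucleus RNA sequencing, in which nuclei in a frozen section are tagged with spatial barcodes before they are dissociated and sequenced as single nuclei. Each tissue was 1 library. The embryonic library (E14 brain) came from a sagittal section of a C57BL/6J embryo at embryonic day 14. The adult library (adult hippocampus) came from a coronal section of the hippocampus of a male C57BL/6J mouse at 56 days. No treatment or mutant allele was given for either. With 1 library per tissue there was no test between conditions, the intervals printed below cover counting error only, and age and region cannot be told apart.

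Meis1, Meis2 and Pbx3 belong to the TALE homeobox family. Meis and Pbx proteins bind DNA together and act as partners of Hox and other homeodomain proteins, and Meis2 is known from the cortical and striatal germinal zones. Zic genes encode zinc finger proteins that are known from the dorsal midline of the neural tube, the cerebellum, the forebrain septum and the meninges. Zic genes lie in neighbouring pairs in the mouse genome, and loss of Zic1 together with Zic4 is associated with cerebellar malformation.

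The gene positions below are those of GENCODE on GRCm38, the build named mm10 in the submitters' notes. Zic1 (ENSMUSG00000032368) lies on the minus strand at chr9:91358058-91365810 and Zic4 (ENSMUSG00000036972) on the plus strand at chr9:91362413-91389348. They overlap by 3398 bases, with start sites 3397 bases apart. Zic2 (ENSMUSG00000061524, plus strand, chr14:122475435-122479852) and Zic5 (ENSMUSG00000041703, minus strand, chr14:122456795-122465677) do not overlap, and their start sites are 9758 bases apart. Meis1 (ENSMUSG00000020160) lies at chr11:18879817-19018985, Meis2 (ENSMUSG00000027210) at chr2:115863064-116065839 and Pbx3 (ENSMUSG00000038718) at chr2:34171457-34373142, all on the minus strand. Whether the counting used strand was not given in the sources used here, so reads in the stretch that Zic1 and Zic4 share may not be told apart. Meis1 also holds 3 annotated genes on its own strand.

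RefSeq promoter windows on GRCm38.p6 were matched for 5 of the 7 genes, namely Meis1, Meis2, Zic1, Zic4 and Zic5. They are shown because the Zic1 window lies inside the annotated span of Zic4, and because the genes compared below differ in what stands upstream of their RefSeq starts. Each line is the exon-free run upstream of the RefSeq start, 5′ to 3′ on the minus strand of the gene, with motif matches in capitals. The Meis2 run lies inside the Meis2 span given above. Its RefSeq start is at 116064619, whereas the annotated gene starts at 116065839. The Zic1 run is chr9:91365811-91366018, the Meis1 run chr11:19018986-19019219, the Zic5 run chr14:122465678-122465908 and the Meis2 run chr2:116064722-116064801. The Zic4 window was annotated exon throughout and is not shown.
Zic1: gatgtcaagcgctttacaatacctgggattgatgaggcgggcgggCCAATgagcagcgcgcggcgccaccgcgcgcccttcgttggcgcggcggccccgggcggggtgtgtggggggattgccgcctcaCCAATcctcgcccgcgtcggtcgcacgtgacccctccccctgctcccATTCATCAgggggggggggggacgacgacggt
Meis1: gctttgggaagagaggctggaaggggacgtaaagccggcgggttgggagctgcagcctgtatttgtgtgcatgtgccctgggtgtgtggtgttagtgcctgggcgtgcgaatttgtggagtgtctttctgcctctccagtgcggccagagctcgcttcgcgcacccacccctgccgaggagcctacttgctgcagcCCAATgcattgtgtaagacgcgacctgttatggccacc
Zic5: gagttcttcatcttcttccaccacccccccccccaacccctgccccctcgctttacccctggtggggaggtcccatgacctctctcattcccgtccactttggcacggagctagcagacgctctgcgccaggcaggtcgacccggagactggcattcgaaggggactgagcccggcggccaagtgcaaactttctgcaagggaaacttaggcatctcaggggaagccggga
Meis2: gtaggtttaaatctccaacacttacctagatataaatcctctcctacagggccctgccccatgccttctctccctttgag
The letters searched on both strands were CCAAT (the CCAAT box), TGACAG (a Meis core), TGATNNAT (a Pbx with Hox type site) and CAGCAGG (a Zic core). The Zic1 run held CCAAT at 2 places and TGATNNAT at 1, the latter read on the opposite strand, and no matches overlapped. CCAAT is found in 29.6% and TGATNNAT in 6.64% of the 32851 RefSeq promoters over a window of that length. The Meis1 run held CCAAT at 1 place, as 32.5% of promoters do over its length. The Zic5 and Meis2 runs held none of the 4 motifs.

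The E14 library held 9036 nuclei after filtering, with 58923882 UMIs (unique molecular identifiers, each standing for 1 captured transcript) and a median of 4204 UMIs per nucleus. The adult library held 1609 nuclei, 15346746 UMIs and a median of 6607. Only 1 barcode was shared by the libraries. Nuclei were put in classes by the UMIs of marker genes that are not among the 7, which classed 5648 E14 and 1380 adult nuclei, while 37.5% and 14.2% joined no class. Of the classed nuclei, 53.3% in E14 and 18.0% in the adult sat exactly at a limit of the gate, so that 1 UMI or marker less would have removed them. Levels are given as CPM, the UMIs of a gene per 1000000 UMIs of the class, with exact Poisson 95% intervals in parentheses. A fold compares a class with all other nuclei of its library.

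The labels of the classes were checked against their markers. Thalamic nuclei held Tcf7l2 at 1633 against 223 CPM in the other nuclei, and hypothalamic nuclei held Sim1 at 591 against 67.5 and Otp at 248 against 20.3. Meningeal nuclei, of the membranes around the brain, held the collagen gene Col3a1 at 1147 against 24.1 and the transporter Slc6a13 at 415 against 4.94. The striatal list went against its name in E14. Its 110 nuclei held 1 UMI of the dopamine receptor gene Drd1 and had Foxp1, a striatal factor, at 300.5 against 444, but Ebf1 at 1454 against 299.6 and Isl1 at 266 against 53.8. These nuclei are called Ebf1 and Isl1 nuclei below. The adult thalamic class held Synpo2 at 1024 against 13.6 and Slc17a6, a glutamate transporter of thalamic neurons, at 347 against 3.60.

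The E14 library carried a high background. Ttr, a choroid plexus transcript, had a UMI in 81.0% of its nuclei. E14 microglia, the resident macrophages of the brain, arise outside the neural tube and served as a class outside the neural lineage. Of its 160 nuclei, 42 lay in cluster 20 and 30 in cluster 21 of the clustering described below, the clusters where this class is the main one. The other nuclei of the class lay in clusters of other cells. Their part in the levels of this class was not tested. Their levels of the 7 genes were nevertheless between 69.9% (Zic1) and 92.8% (Meis1) of the level over the whole library. When each nucleus was thinned to 1000 UMIs, a UMI of Zic1 was found in 5.63% of 160 microglia (exact binomial 95% interval 2.60 to 10.4), of Pbx3 in 28.8% (21.9 to 36.4) and of Meis2 in 26.9% (20.2 to 34.4). Zic2 was found in 0 of 160, which allows a share of up to 1.88% at 3 counts and of 2.28% by the exact interval. Shares in other E14 classes at or below these values are not told apart from those of this class. Its levels may hold more than background, because part of its nuclei lay in clusters of other cells. Adult microglia also held Pbx3 above the other adult nuclei, 6.81-fold. For that gene too the E14 microglial level may not be background alone, which was not tested.

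The clearest regional pattern in E14 was of high Zic levels in the meninges, the choroid plexus and the Sim1 and Otp hypothalamus. It was not the same for each Zic gene. In choroid plexus 2 reached 2-fold, Zic4 and Zic5, and in Lhx8 ventral forebrain nuclei 1 did, Zic1. Meis2 and Pbx3 had other distributions. In meningeal nuclei all 4 Zic genes stood at least 2-fold above the other nuclei, with Meis1 below 0.5 times.

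In the 343 meningeal nuclei Zic1 was at 351 CPM (329 to 375) against 138 in all other nuclei, a fold of 2.54. Zic2 was at 35.1 (28.3 to 43.1) against 10.3, Zic4 at 182 (166 to 199) against 75.0, and Zic5 at 50.0 (41.8 to 59.4) against 14.3. The intervals of all 4 genes lay above the level of the rest. A Zic1 UMI was found in 76.4% of meningeal nuclei (71.5 to 80.8) and in 28.1% of microglia, at median depths of 4241 and 4388 UMIs. At 1000 UMIs per nucleus the Zic1 share was 34.6% in meningeal nuclei against 5.63% in microglia, and the Zic2 share was 4.40%. Pbx3 was 1.38-fold higher than in the rest at 649 (619 to 681), and its thinned share of 42.1% was the only one among 17 classes whose interval lay above that of microglia. Meis1 was at 39.3 (32.1 to 47.7) against 85.6 and Meis2 at 766 (732 to 799.9) against 1178, so that the class low in Meis1 was the class highest in Zic1. Of all 15790 genes compared, 9.71% stood 2-fold or more higher in meningeal nuclei, against 4 of the 7 genes here. The median log2 fold was 0.03 over all genes and 1.27 over the 7.

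Hypothalamic nuclei, 241 in number, were high in Zic and low in Meis2 and Pbx3. Zic1 was at 285 (264 to 308) against 142, Zic2 at 30.1 (23.5 to 38.0) against 10.6 and Zic5 at 32.7 (25.7 to 40.9) against 15.2. These 3 genes reached 2-fold, where 1.32% of all genes did, although Zic1 did so at 2.00 exactly to the printed digits. Zic4 was 1.59-fold higher at 124 (110 to 139). Meis2 was at 327 (304 to 351) against 1194, the lowest of the 18 E14 classes of at least 30 nuclei, and Pbx3 was at 215 (197 to 235) against 490.4. Meis1, at 80.4 (69.3 to 92.8), overlapped the level of the rest at 83.7. A median log2 fold of 0.66 over the 7 genes stood beside -0.09 over all genes. Compared with nuclei of the other classes alone, the count at 2-fold fell to 1, Zic2.

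Thalamic nuclei were low in most of the 7 genes at E14. None of the 7 reached 2-fold among the 905 nuclei, as against 1.45% of all genes, and Meis2 and Zic5 lay at or below 0.5 times the rest. Meis2 was at 601 (580 to 622) against 1214, Pbx3 at 296 (282 to 311) against 498 and Meis1 at 47.2 (41.5 to 53.5) against 87.1. Each lay below the microglial level as well. Zic1 was at 126 (117 to 136) against 150.0 and Zic4 at 64.7 (58.0 to 72.0) against 81.2, and Zic2 at 8.57 overlapped the rest. Thinned to 1000 UMIs, Zic1 was found in 11.5% of thalamic nuclei, with an interval that overlaps the microglial one. The median log2 fold was -0.75 over the 7 genes and -0.11 over all genes.

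The Ebf1 and Isl1 nuclei were moderately high in Meis2 and Pbx3. Meis2 was at 1555 (1472 to 1641) against 1154, a fold of 1.35, and Pbx3 at 677 (623 to 735) against 477, a fold of 1.42. Meis1, at 84.3 (65.9 to 106), could not be told apart from the rest at 83.5, and Zic4 was lower at 46.3 (32.9 to 63.3) against 80.2. None of the 7 reached 2-fold, beside 1.89% of all genes. Zic2 rested on 5 UMIs and Zic5 on 10, and both turned from below to above the rest when the mean was taken over nuclei instead of over pooled UMIs (1.68-fold and 1.63-fold). The median log2 fold was -0.28 over the 7 genes and -0.11 over all genes.

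**Figure D1:**
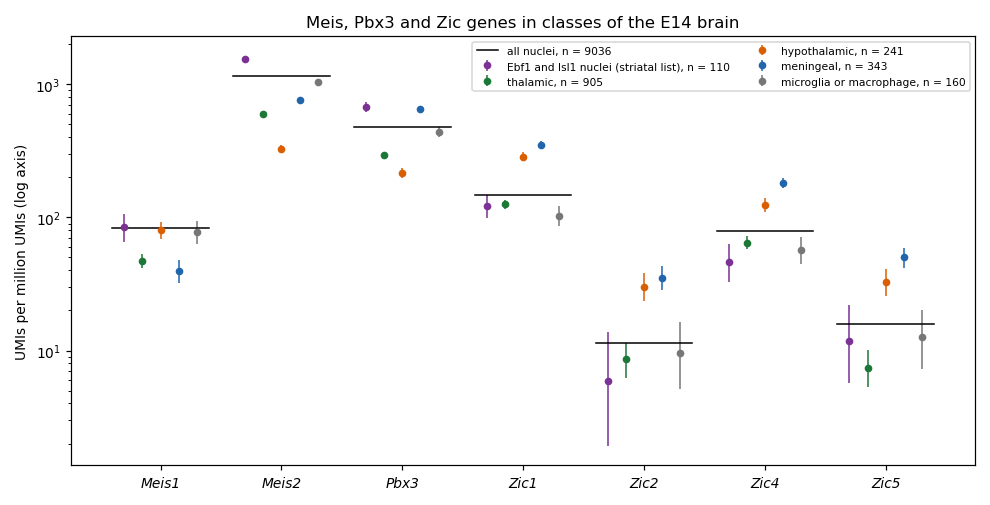
Levels of the 7 genes in CPM (log axis) in 5 classes of the E14 brain, with exact Poisson 95% intervals and a black line at the level over all 9036 nuclei. The meningeal and hypothalamic points lie above the line for all 4 Zic genes, and the thalamic points lie below it for all 7 genes.

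Ordered over the 18 E14 classes, the 7 genes were led by 4 classes. Zic1 was highest in meningeal nuclei at 351, then in Lhx8 ventral forebrain nuclei at 311 (279 to 345), hypothalamic nuclei at 285 and choroid plexus at 258 (236 to 282), and the intervals of neighbours in this order overlap. Zic4 led in choroid plexus, the epithelium that makes cerebrospinal fluid, at 219 (199 to 241), ahead of meningeal nuclei at 182, again with overlapping intervals. Zic2 and Zic5 were both highest in meningeal nuclei. Zic5 was second in choroid plexus at 38.9 (30.6 to 48.7). The lowest Zic1 level was in interneurons at 83.8. At equal depth, the classes of the 17 whose interval lay above that of microglia numbered 5 for Zic1, 6 for Zic4, 1 for Zic2 (meningeal) and 1 for Zic5 (choroid plexus, 7.44%).

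Meis2 was highest in progenitor classes. It stood at 2323 (2270 to 2377) in intermediate progenitors, the Eomes class of 203 nuclei, and at 1991 (1948 to 2035) in the 464 radial glia, the neural stem cells. Next came the 31 nuclei of the list named GABAergic without Dlx, not a progenitor class, at 1790 (1649 to 1939). That name is the name of the list only. The list holds no GABA synthesis gene, and the gate did not exclude nuclei with Dlx UMIs. The thinned Meis2 share lay above the microglial interval in 3 classes, which were cortical excitatory, intermediate progenitor and radial glia nuclei. Pbx3 was highest in the class named GABAergic without Dlx at 1495 (1367 to 1633), a fold of 3.16 over the rest, and next in the Lhx8 nuclei at 883 (828 to 939.7). Meis1 was highest in the same class of 31 nuclei at 162 (122 to 212), with the interneurons at 123 (113 to 135) overlapping it. No class had a thinned Meis1 share whose interval lay above that of microglia.

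**Figure D2:**
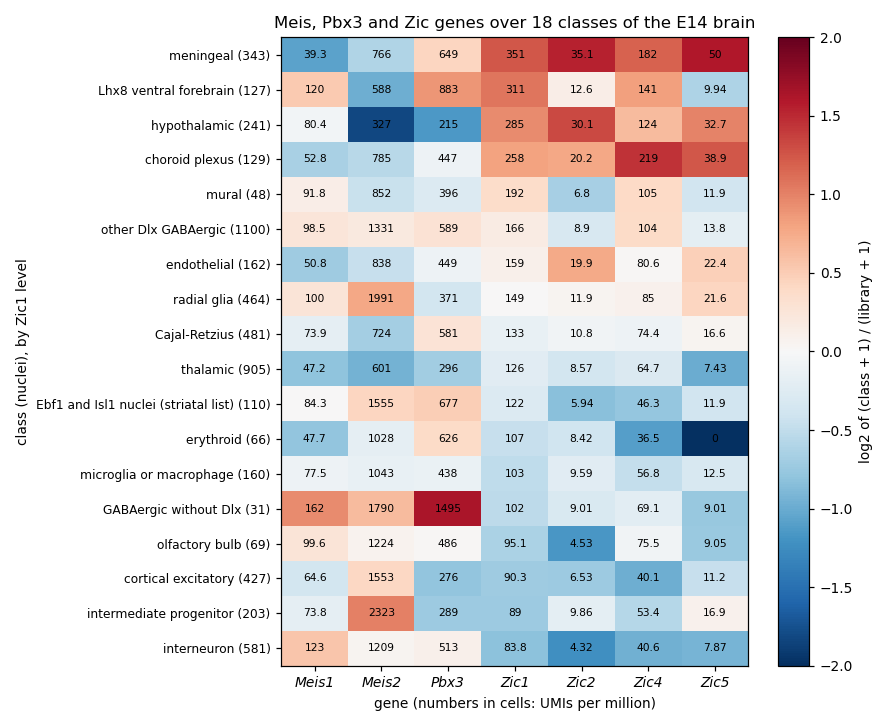
Levels of the 7 genes over 18 E14 classes, sorted by Zic1 from top to bottom, with CPM printed in each cell and colour for the log2 ratio of class to library after adding 1 to both. The 4 Zic columns are red in the meningeal, hypothalamic and choroid plexus rows, while the Meis2 column is darkest blue in hypothalamic nuclei at 327.

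Levels of different genes are set side by side here in CPM, first without division by length. The paper counted intronic reads too, and whether CPM is comparable between genes of unlike span was not tested. Over the E14 library the CPM was 1159.5 for Meis2, 479.5 for Pbx3, 148 for Zic1 and 83.5 for Meis1. It was 79.7 for Zic4, 15.9 for Zic5 and 11.4 for Zic2. These levels were also divided by kilobases of exon. On that scale Meis2 was at 96.3, Pbx3 at 78.5 and Zic1 at 26.0, followed by Meis1 at 7.93, Zic4 at 7.71, Zic2 at 3.96 and Zic5 at 3.24. Nuclear RNA also holds introns, and per kilobase of the whole gene span the order was another, with Zic1 at 19.1, Meis2 at 5.72, Zic4 at 2.96, Zic2 at 2.58, Pbx3 at 2.38, Zic5 at 1.78 and Meis1 at 0.600. Meis2 thus stood highest undivided and per kilobase of exon, and Zic1 per kilobase of the gene span. Whether division by either length suits these UMI counts was not tested.

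All nuclei were also clustered without the 7 genes, into 21 clusters in E14 and 14 in the adult, named here by number and up to 3 leading genes. This was added after the data were seen, and it resolves the classes further. Cluster 9 (Creb5, Etl4, Ltbp1), with 449 nuclei, held Meis2 at 3813 CPM (3739 to 3888), with a UMI in 89.5% of nuclei and with Pax6 at 396. Next were cluster 19 (Gpr149, Tenm1) at 3586 (3447 to 3729), cluster 12 (Sox1ot, Vit, Ano1) at 3070 (2994 to 3147) and cluster 14 (Sema3e, Fign, Kcnmb2) at 3058 (2972 to 3146). Cluster 3 (Sim1, Otp, Cartpt) held the least Meis2 at 145 (134 to 157). The microglial cluster 21 (Ly86, Apbb1ip, Fcrls) still held Meis2 at 665.

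Meis1 separated cluster 12 from cluster 9, the clusters that hold the most radial glia. It was at 245 (224 to 267) in cluster 12, whose nuclei held the ventral forebrain gene Dlx1 at 179, and at 60.3 (51.3 to 70.4) in cluster 9. Among radial glia in cluster 9 alone, 149 nuclei, Meis2 was at 4103, Meis1 at 65.0 and Zic1 at 47.8. Among the 88 radial glia of cluster 12, Meis2 was at 2812, Meis1 at 229, Pbx3 at 476 against 184 in cluster 9, and Zic1 at 222. Meis2 was thus high in both groups of radial glia, while the other 3 genes were higher in the group of cluster 12. The Dlx1 level was taken over all nuclei of that cluster, not over its radial glia alone.

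Pbx3 was highest in cluster 16 (Ebf2, Lmx1b, Ttc6), with 158 nuclei, at 1098 (1034 to 1165), where Foxp2 stood at 958. Zic1 in that cluster was at 37.3 and Meis2 at 357. Clusters 14 and 2 (Snhg9, Lypd1, Ecel1) followed at 947 and 906, and the intervals of this pair overlap. Zic1 was highest in cluster 11 (Ranbp3l, Ptgds, Slc6a13) at 346 (326 to 368) and cluster 3 at 293 (277 to 310), and Zic4 in cluster 18 (Htr2c, Ttr, Clic6) at 206 (189 to 226) and cluster 11 at 190.0 (175 to 206). Zic2 and Zic5 were also high in cluster 17 (Trp73, Reln, Rspo3), at 28.2 and 41.6, although Zic1 there, at 143, lay near the library level of 148.

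The classes were not uniform inside. Of the thalamic nuclei, the 457 in cluster 6 (Rnf220, Tcf7l2, Ntng1) held Meis2 at 217 (200 to 235) and Meis1 at 20.8, whereas the 28 in cluster 19 held Meis2 at 2712 (2386 to 3070) and the 42 in cluster 9 held 2429. The low Meis2 of the class was therefore lower still in the cluster that holds most of it, and Zic1 there was at 127. The 184 hypothalamic nuclei in cluster 3 held Zic1 at 399.7 (366 to 436), Zic2 at 45.1, Zic4 at 151 and Zic5 at 43.5, each above the value for the whole class. Their Meis2 was at 112. The 311 meningeal nuclei of cluster 11 held Zic1 at 389 and Zic4 at 210. Of the 110 Ebf1 and Isl1 nuclei, 33 lay in cluster 1 (Pmch, Gata3, Brinp3). Those 33 held Meis2 at 920 (807 to 1044), below the level of the class, and Pbx3 at 735 (634 to 847).

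The neighbouring Zic genes were compared over the 18 E14 classes and within nuclei. Over the classes, the Pearson correlation of log2(CPM + 1) between Zic1 and Zic4 was 0.89, and each ranked first for the other among 8600 genes. This describes 18 points that share 1 library, and reads from the overlap of these genes could contribute to either, which was not tested. Zic2 and Zic5, which do not overlap, had a correlation of 0.61, with Zic5 at rank 273 for Zic2 and Zic2 at rank 695 for Zic5. Of the pairs on different chromosomes, Zic1 and Zic2 stood at 0.79, Zic2 and Zic4 at 0.71, Zic4 and Zic5 at 0.68 and Zic1 and Zic5 at 0.54. Meis1 and Meis2 stood at 0.32, and Meis2 and Zic1 at -0.66. The non-member most like Zic1 was Elob at 0.85, and those most like Zic2, Zic4 and Zic5 were St13 at 0.86, Ndufa1 at 0.84 and Ghitm at 0.90. For Zic2 and Zic5 these values lay above those with any other Zic gene, so the shared pattern is not particular to the Zic genes. The non-member most like Pbx3 was C79798 at 0.98, an annotated gene that overlaps Pbx3 on the opposite strand.

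In nuclei thinned to 2000 UMIs, 7047 in all, a Zic4 UMI was found in 29.4% of nuclei with a Zic1 UMI (27.1 to 31.8) and in 8.33% of those without. The same held within meningeal nuclei, at 45.1% (36.7 to 53.6) against 25.2% (18.1 to 33.4). Zic5 was found in 15.1% of nuclei with Zic2 (9.69 to 21.9) and in 2.58% of the rest. Within meningeal nuclei these shares were 16.7% (3.58 to 41.4) and 13.5% (9.60 to 18.3). In radial glia they were 0% of 9 nuclei with Zic2 (0 to 33.6) and 4.82% of the rest. In hypothalamic nuclei they were 28.6% (8.39 to 58.1) and 3.67% (1.60 to 7.10). In other Dlx GABAergic nuclei they were 20% (4.33 to 48.1) and 2.37% (1.49 to 3.56). The part of class make-up in the pooled gap of this pair was not tested. Meis2 was found in 63.8% of nuclei with Meis1 and in 36.4% of the rest. For Zic1 against Meis2 the order was the opposite, with Zic1 in 15.9% of Meis2 nuclei and in 23.6% of nuclei without Meis2. Within radial glia these shares were alike, at 19.7% (15.5 to 24.6) and 19.1% (11.8 to 28.6). Within meningeal nuclei they were 32.9% (22.3 to 44.9) and 57.8% (50.7 to 64.7).

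**Figure D3:**
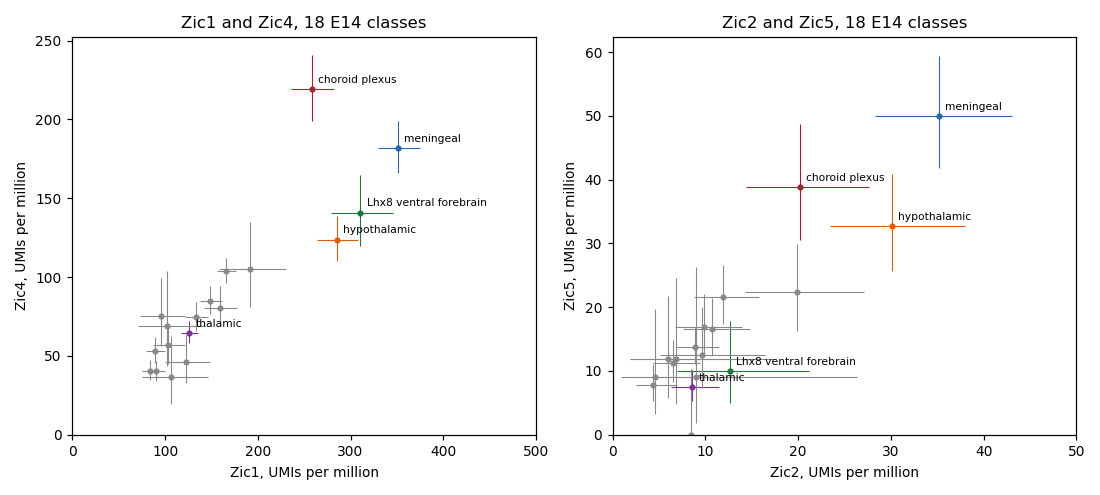
Zic1 against Zic4 (left) and Zic2 against Zic5 (right) over 18 E14 classes, both axes in CPM with exact Poisson 95% intervals. Choroid plexus, meningeal, hypothalamic and Lhx8 nuclei stand apart at Zic1 levels of 258 to 351, and the Lhx8 nuclei fall back among the other classes for Zic2 and Zic5.

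Other genes of the TALE homeobox family were followed as well, namely Meis3, Pbx2, Pbx4, Pknox1, Pknox2, Tgif1 and Tgif2. None of these 7 others reached 2-fold in hypothalamic, thalamic or Ebf1 and Isl1 nuclei of E14. In meningeal nuclei 1 did, Tgif1, at 8.79 (5.57 to 13.2) against 2.22. Pbx4 was at 11.8 (8.05 to 16.8) there against 27.5. In adult thalamic nuclei none of these others reached 2-fold, and 3 lay at or below 0.5 times the rest, among them Pknox2 at 31.9 (23.3 to 42.5) against 97.7.

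In the adult hippocampus library little of the embryonic level remained, and what remained was split among cell types. All 7 genes were at or below 0.5 times their E14 level, where 21.3% of the 16727 genes compared were. Meis2 went from 1159.5 CPM in E14 to 63.6 in the adult, Pbx3 from 479.5 to 19.7, Zic4 from 79.7 to 5.02 and Meis1 from 83.5 to 9.90. Zic1 went from 148 to 29.5, Zic2 from 11.4 to 3.32 and Zic5 from 15.9 to 3.71. The median log2 difference of adult to E14 was -2.95 for the 7 genes and -0.14 for all genes. Of the 7 other family genes followed here, 3 lay as low, Pknox1, Tgif1 and Tgif2. The size of the difference depends on depth and weighting, since the Meis1 ratio of E14 to adult was 8.43 over pooled UMIs, 3.54 as a mean over nuclei and 3.07 after thinning to 1000 UMIs. Under the same settings the ratio was 24.3, 15.3 and 17.2 for Pbx3, 5.02, 3.23 and 4.37 for Zic1 and 4.27, 3.01 and 2.42 for Zic5. These are whole libraries of unlike cell make-up, and fewer cells of a type and less RNA per cell cannot be told apart in them.

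Zic1 was found chiefly in the thalamic nuclei of the adult section. In these 94 nuclei it was at 224 (201 to 250.2) against 9.21 in all other nuclei, a fold of 24.4, on 324 UMIs. A Zic1 UMI was present in 82 of 94 nuclei, 87.2% (78.8 to 93.2), at a median depth of 13228 UMIs. Adult microglia, at a median of 2288, had none among 41 nuclei, which allows a share of up to 7.32% at 3 counts and of 8.60% by the exact interval. Thinned to 1000 UMIs, 22.1% of thalamic nuclei (13.9 to 32.3) still held Zic1. Zic4 was at 35.3 (26.3 to 46.4) against 1.87 and Zic2 at 15.2 (9.55 to 23.1) against 2.09, folds of 18.9 and 7.30. Zic5 was at 7.62 on 11 UMIs, with an interval of 3.80 to 13.6 that overlaps the rest at 3.31. By fold, 4 of the 7 genes were at 2-fold or more, of which 1 of the 4 with at least 100 UMIs in the library, Zic1, where 7.36% of 11995 such genes were. The median log2 fold was 1.00 over the 7 genes and -0.17 over all genes. Meis1 and Meis2 had 1 UMI each in the thalamic nuclei, 0.693 CPM (0.0175 to 3.86), against 10.9 and 70.1 elsewhere, and Pbx3 did not stand apart at 19.4 (12.9 to 28.0) against 19.8. The values depend on depth, as the Zic1 fold was 14.1 and the Zic4 fold 6.14 after thinning to 1000 UMIs.

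The thalamic classes of the 2 libraries came from marker lists that overlap only in part. In E14, 457 of the 905 nuclei lay in cluster 6 of that library, and in the adult 91 of 94 lay in its own cluster 6. Set beside the E14 thalamic nuclei, the adult ones held 1.78 times as much Zic1 in CPM, 224 against 126 with intervals apart. Zic4 was 0.546 times as high, and Zic2 and Zic5 had overlapping intervals. Pbx3 fell to 0.0654 times the E14 level. The E14 thalamic level of Pbx3 lay below that of E14 microglia, and those of Zic1 and Zic4 overlapped the microglial intervals of 86.9 to 122 and 44.8 to 71.0. These ratios may therefore set the E14 background beside an adult level, for all 3 genes, which was not tested. Adult microglia, unlike those of E14, held no UMI of Zic1, Zic4 or Zic5, which allows up to 22.2 CPM for each by the exact interval. That limit lies below the E14 microglial intervals of Zic1 and Zic4. For Zic5, at 12.5 (7.31 to 20.1) in E14 microglia, the intervals overlap and no difference is shown.

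Among the hippocampal neuron classes of the adult, Meis2 was highest in CA1. CA1 pyramidal nuclei, 193 in number, held Meis2 at 166 (153 to 181) with a UMI in 66.8% of nuclei, whereas CA3 nuclei held 12.8 (6.37 to 22.8) and dentate granule nuclei 2.71 (1.44 to 4.63). The intervals of the 3 do not overlap, and 2.44% of adult microglia held a Meis2 UMI at their lower depth. CA1 nuclei had 0 UMIs of Zic1, Zic2 and Zic4, which allows 0.874 CPM for each at 3 counts and 1.07 CPM by the exact interval. Pbx3 was highest among neurons in inhibitory nuclei at 106 (80.1 to 138), with a UMI in 12 of 35 nuclei, 34.3% (19.1 to 52.2), against 12.5 in CA1 and 1.67 in dentate granule nuclei.

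Adult glia held Meis and Zic genes in different proportions. The 265 oligodendrocytes, the myelin-forming cells, held Meis1 at 87.6 (70.6 to 107) against 4.20 in all other nuclei, with a UMI in 24.9% of nuclei (19.8 to 30.6) against 7.32% of microglia (1.54 to 19.9), and no UMI of Zic4 or Zic5. Pbx3 was at 52.3 (39.4 to 68.1) there against 17.4. The 225 astrocytes held Meis2 at 172 (147 to 200), Meis1 at 33.4 (23.0 to 46.8), Zic5 at 28.3 (18.8 to 40.9) and Zic2 at 14.1 (7.74 to 23.7). The Zic5 level rests on 28 UMIs and stood against 2.02 in all other nuclei.

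The astrocytes lay mainly in 3 clusters. Cluster 2 (Hpcal4, Ddn, Map1a) held 93 of the 225 at a median of 956 UMIs, with Meis2 at 34.4 on 5 UMIs, Zic1 at 41.3 on 6 UMIs and no UMI of Meis1. The other clusters carried different genes of the 7. Cluster 7 (Rgs20, Slc1a3, Wdr17), with 104 nuclei, held Meis2 at 210 (178 to 245) and Zic5 at 31.7, but Meis1 at 7.92 and Zic1 at 2.64 (2 UMIs). Cluster 13 (Slc6a11, Atp13a4, Agt), with 23 nuclei, held Meis1 at 251 (167 to 363), Zic1 at 117 (62.1 to 199) and Meis2 at 26.9 on 3 UMIs. The forebrain gene Lhx2 was at 69.9 in cluster 7 and at 0 UMIs in cluster 13, while the astrocyte gene Gja1 was alike at 945 and 933. The Meis1 and Zic1 UMIs in cluster 13 number 28 and 13.

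Vascular classes were small. The 41 endothelial nuclei held Pbx3 at 150.0 (98.0 to 220) against 18.3, and 5 UMIs each of Zic2 and Zic5. In 11 mural nuclei, of the cells that wrap small vessels, 10 had a Zic1 UMI, and Zic1 was at 322 (206 to 479) on 24 UMIs. Those nuclei also held Pdgfra at 349 against 12.3, a gene of fibroblasts and oligodendrocyte precursors, and its part in the Zic1 value was not tested. Microglia held Pbx3 at 126 (78.3 to 193) against 18.6.

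**Figure D4:**
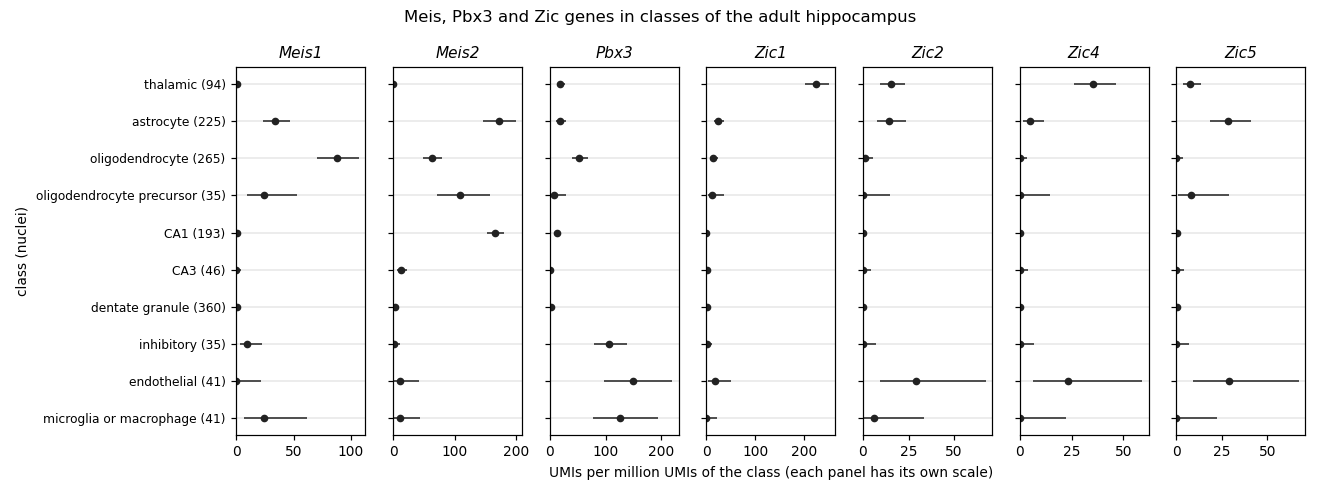
Levels of the 7 genes in 10 classes of the adult hippocampus, in CPM with exact Poisson 95% intervals and a separate scale in each panel. Zic1 reaches 224 in thalamic nuclei and no other class shown exceeds 24.3, while Meis2 is highest in astrocytes at 172 and CA1 nuclei at 166.

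**Figure D5:**
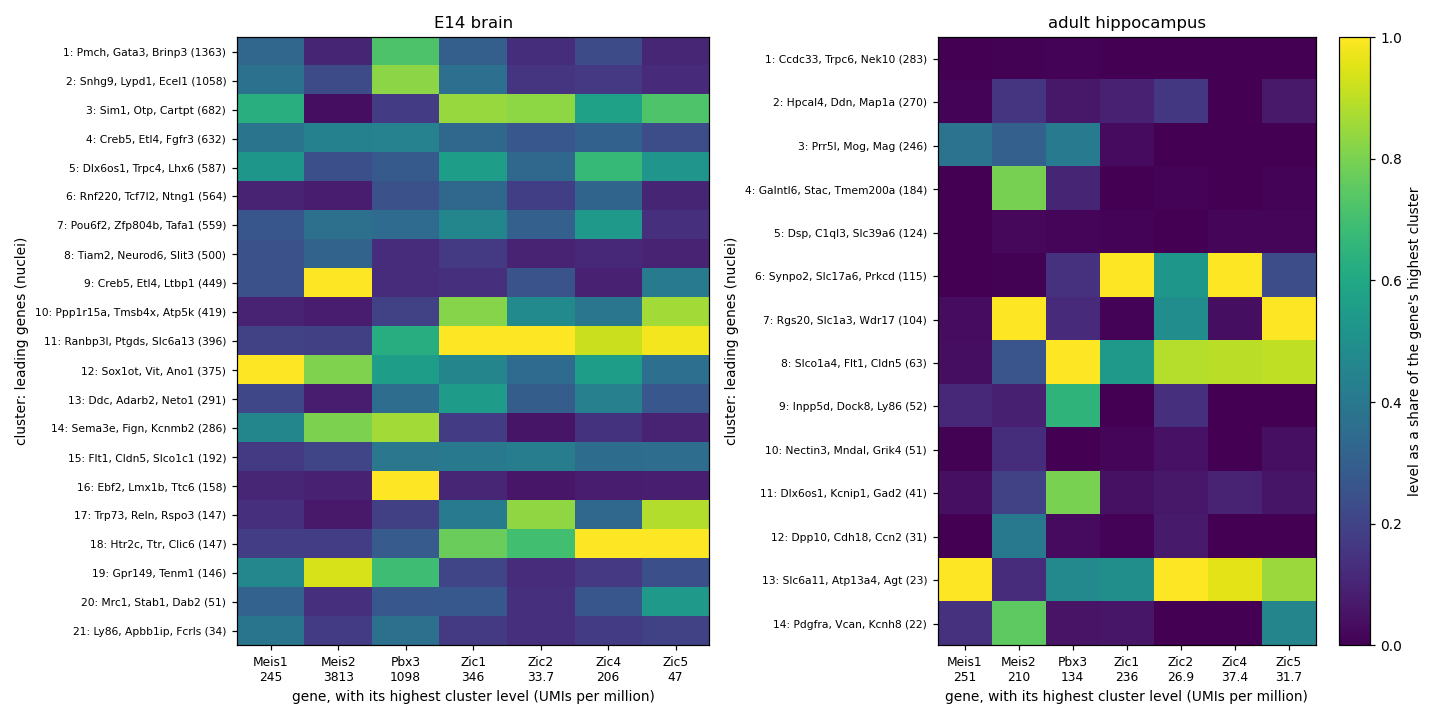
Level of each gene in 21 E14 clusters (left) and 14 adult clusters (right), as a share of its highest cluster, whose level in CPM is printed under the gene. In E14 the Zic genes share clusters 3, 11 and 18 and Meis2 has clusters 9, 12, 14 and 19, whereas in the adult Zic1 and Zic4 peak in cluster 6 (Synpo2, Slc17a6, Prkcd) and Meis1 in cluster 13.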

How the data were processed

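The authors deposited raw UMI counts per gene and nucleus as filtered matrices, made per the file headers with Cell Ranger 7.0.1 (E14 brain) and 6.1.2 (adult hippocampus). The submitters' notes name the mm10 build. Ambient RNA removal is described for the embryo, but the matrix header is that of Cell Ranger, so the counts were treated as uncorrected. Nuclei with at least 500 UMIs and at most 5% mitochondrial UMIs were kept, and doublets were kept in the reported values. A marker counted in a nucleus at 2 times or more the library average at that depth. A nucleus joined the marker list with the most such markers, given at least 2 markers, 1 more than any other list and 3 UMIs. Nuclei unclaimed by any list were then offered the lists for other Dlx GABAergic nuclei and radial glia. This scoring was set after class sizes and marker levels were seen, without the 7 genes. The 7 genes, the markers and the other lists were chosen with earlier results of these data known. Genes named in the text are the 7, 7 other family genes, class markers and, for likeness, the 3 genes most correlated with each of the 7 among genes with at least 1000 UMIs, of which some are given. Pooled CPM (UMIs per 1000000 UMIs) were compared by fold, with exact Poisson and Clopper-Pearson 95% intervals, and no test was run, since each tissue was 1 library. A fold was called at 2 or more among genes with at least 100 UMIs. The gating and fold steps were checked on simulated data. Clusters (2000 variable genes, 30 components, 20 neighbours, Leiden resolution 0.8) used scanpy 1.11.5 with Python 3.11.15, numpy 2.4.6, scipy 1.17.1 and pandas 2.3.3. Alternatives covered the depth and mitochondrial limits, doublets, the gate, the mean over nuclei, the denominator, thinning, Malat1-poor nuclei and the comparison group. Clusters and 2 further gates were added after the data were seen. Some genes of the lists are not reported here. Spatial positions were not used here.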

Additional observations from a re-analysis of the deposited data

Results flagged for a closer look

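Zic1 and Zic4 stood on opposite sides of the other nuclei in the thalamic class of the 2 libraries. The Zic1 fold of thalamic over all other nuclei was 24.4 in the adult and 0.840 in E14. For Zic4 the fold was 18.9 in the adult and 0.798 in E14. The intervals of the thalamic level and of the rest did not overlap in either library for either gene. The difference between the libraries was not tested, since each was a single library. Age, brain region, the marker list of the class and the make-up of the other nuclei differ between them together.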

How the results depend on the processing

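Of 58 counts of genes past the fold recomputed under the alternatives, 57 stayed within 1.5 times the reported count. The exception was the hypothalamic count in E14, which was 1 instead of 3 when hypothalamic nuclei were compared with nuclei of the other classes only, where Zic1 stood at 1.90-fold. Of 357 folds of single genes, 281 moved by less than their counting interval. The fold lay on the other side of 1 in 12 of the 357. In 1 of these a fold past 2 was lost, that of Zic5 in adult thalamic nuclei, which was 0 after thinning to 1000 UMIs because no Zic5 UMI was left in the class. The others were 8 of Meis1 and 1 of Pbx3, whose reported folds lie near 1, and those of Zic2 and Zic5 in Ebf1 and Isl1 nuclei as a mean over nuclei. The Zic1 fold in adult thalamic nuclei ranged from 14.1 (thinned) to 35.0 (other classes only) and that of Zic4 from 6.14 to 26.6 under the same settings. The Meis1 fold in E14 thalamic nuclei was 0.296 instead of 0.542 with the gate at 3 times the library average. The automatic doublet threshold marked 1 E14 and 6 adult nuclei and did not work, so the 653 and 21 nuclei with the highest scores were removed in that alternative. The gate and the choice of comparison group do not apply to the comparison of whole libraries. No paired analysis was possible because each tissue was 1 library, and no replicate could be left out for the same reason. Depth limits Zic2 and Zic5 most, which had the lowest counts of the 7 genes in both libraries.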

Other observations

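Cluster 10 of E14 (Ppp1r15a, Tmsb4x, Atp5k), with 419 nuclei, held Zic1 at 283 CPM (238 to 334) and Zic5 at 40.4 (24.7 to 62.5), but a Zic1 UMI in 22.0% of its nuclei and Zic5 on 20 UMIs. Cluster 5 (Dlx6os1, Trpc4, Lhx6), with 587 nuclei, held Zic1 at 193 (176 to 211) and Zic4 at 139 (124 to 154). Cluster 14 of the adult (Pdgfra, Vcan, Kcnh8), with 22 nuclei, held Meis2 at 158 (98.9 to 239) and no UMI of Zic2 or Zic4. Cluster 8 of the adult (Slco1a4, Flt1, Cldn5), with 63 nuclei, held Zic1 at 127 (94.9 to 166) and Pbx3 at 134 (101 to 174).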
